A study of Mus musculus with 12 samples.

Results

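Interferon-induced GTPases are large GTP-hydrolyzing proteins with which mammalian cells defend their own interior. A set of 10 mouse genes of this class were followed here by their symbols in the count table, namely the 6 guanylate-binding protein genes Gbp2, Gbp3, Gbp4, Gbp5, Gbp6 and Gbp7 and the 4 immunity-related GTPase genes Irgm1, Irgm2, Igtp and Iigp1. Each symbol had 1 line, so that 10 of the 23282 lines of the table are described. All 10 had enough reads to be tested in every comparison, with 131 to 6651 reads per gene and tumor.

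Both families are switched on by interferon gamma, which T cells and natural killer cells release and which acts in part through the transcription factor IRF1, and to a lesser degree by type I interferons. The proteins gather on vacuoles that hold bacteria or parasites and open them, and several guanylate-binding proteins help to start inflammasome signaling. Among the immunity-related GTPases, Irgm1, Irgm2 and Igtp sit on the membranes of the cell itself and keep effectors such as Iigp1 inactive there, and autophagy conjugation proteins are needed to direct both families to their targets. In tumors, transcripts of these genes serve as a readout of interferon exposure in cancer cells and in the immune and stromal cells around them.

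MC38, a mouse colon adenocarcinoma line, was implanted subcutaneously in the right flank of wild-type female C57BL/6 mice, obtained at 6 weeks of age, and RNA of tumor tissue taken on day 19 was sequenced from the 3′ end of transcripts. Con mice received saline with 1% DMSO and 1% Tween 80 together with an IgG2a antibody, SFIH mice a fraction of the plant Inula helenium that is rich in sesquiterpene lactones (SFIH) at 50 mg/kg daily with the IgG2a antibody, PD mice 200 μg of antibody against PD-1, a checkpoint receptor on T cells, 2 times a week, and Comb mice both treatments, all into the peritoneum. There were 3 tumors per group and 12 in all. The labels number the tumors without naming the animal, so that p-values measure the spread between these tumors.

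The 12 libraries held 7870741 to 12261032 counts. Although the tissue was labelled as tumor cells, it was bulk tissue, and the 8 epithelial and carcinoma markers checked summed to 6.51 to 8.86 CPM (counts per 1000000 counts of a library) in the Con tumors. Among them Epcam and Cdx2 were at or under 3 counts in every Con tumor, and Cdh1 had 23 to 41 counts and Vil1 20 to 30. The third Comb tumor stood apart, with summed macrophage markers of 14612 CPM against at most 950 CPM in Con, summed skeletal muscle markers of 6319 CPM against at most 18.2 CPM, and skin markers of 452 CPM against at most 4.62 CPM. Muscle markers were also high in the first Comb tumor (615 CPM) and the first PD tumor (137 CPM). The third Comb tumor also had the lowest normalization factor (0.760) and the lowest sample weight in limma voom, 0.0596, followed by 0.286 for the first Comb tumor. The second Comb tumor had a weight of 1.97, so that limma voom estimates for Comb rest mostly on that tumor. The comparisons of the 10 genes that include the third Comb tumor are given with and without it. Fewer cells of a type and less RNA per cell cannot be told apart in such tissue.

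The promoter sequences are shown first, because interferon acts on these genes through short motifs close to the transcription start. RefSeq promoters (GRCm38.p6, 250 bases before to 50 after the start) matched 7 of the 10 genes. The interferon-stimulated response element (ISRE), to which IRF1 binds, was searched as GAAA, any 2 bases and GAAA again, and the gamma-activated site (GAS), a motif of genes that respond to interferon gamma, as TTC, any 3 bases and GAA, on both strands. In the following stretches upstream of the start, capitals mark the letters of these motifs and everything else is in lower case.
Gbp5, chr3:142496684-142496905, plus strand: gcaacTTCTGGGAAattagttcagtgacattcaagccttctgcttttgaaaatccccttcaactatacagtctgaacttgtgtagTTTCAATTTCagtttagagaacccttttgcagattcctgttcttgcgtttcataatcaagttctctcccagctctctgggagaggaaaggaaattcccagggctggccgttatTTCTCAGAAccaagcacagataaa
Gbp7, chr3:142530215-142530307, plus strand: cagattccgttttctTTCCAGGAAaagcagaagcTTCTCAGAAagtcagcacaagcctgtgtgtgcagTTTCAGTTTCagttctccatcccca
Gbp3, chr3:142559984-142560029, plus strand: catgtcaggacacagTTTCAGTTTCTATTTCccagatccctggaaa
Gbp2, chr3:142620589-142620628, plus strand: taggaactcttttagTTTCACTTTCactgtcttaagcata
Irgm1, chr11:48871421-48871465, minus strand: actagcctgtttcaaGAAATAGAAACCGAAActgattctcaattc
Igtp, chr11:58199496-58199546, plus strand: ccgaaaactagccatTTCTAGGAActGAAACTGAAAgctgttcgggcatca
Irgm2, chr11:58214887-58214937, plus strand: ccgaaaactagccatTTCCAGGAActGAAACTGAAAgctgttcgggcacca

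All 7 matched genes held ISRE letters, against 3.44% of the 32851 promoters in the table. GAS letters were present in Gbp5, Gbp7, Igtp and Irgm2, against 8.30% of all promoters, and these 4 genes thus held both motifs, against 0.454% of all promoters. In Gbp3 and Irgm1 a pair of ISRE matches overlapped each other. Gbp3 had a second RefSeq start whose promoter held neither motif. A match of letters is a description and not a bound site.

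The genes lie on 4 chromosomes. Gbp5, Gbp7, Gbp3 and Gbp2 are neighbors on chromosome 3, Gbp4 and Gbp6 lie in a second cluster of guanylate-binding protein genes on chromosome 5, Irgm1 lies on chromosome 11 apart from Igtp and Irgm2, and Iigp1 is on chromosome 18. Igtp and Irgm2 stand next to each other and share almost the same motif stretch. Only 2 of the 51 bases printed for them differed, while their promoters aligned at that stretch without gaps were 68.2% identical over 270 bases.

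Reads from the 3′ end could be assigned to most of these genes without ambiguity. Of all 75-base stretches in the last 500 bases of the GENCODE M21 transcripts, at most 0.939% were shared with another gene for 9 of the 10 genes. For Gbp6, 70.2% were shared with Gbp9, Gbp10 or the predicted gene Gm43302, so that its counts are uncertain.

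To see what each treatment did, the levels were first compared tumor by tumor. They are given as CPM on library sizes scaled by the trimmed mean of M-values (TMM), and as mean ± SD of 3 tumors. Levels in Con and SFIH tumors lay close together for most of the genes. All 3 PD tumors were above all Con tumors for 9 of the 10 genes. Comb tumors ranged from the Con level to the highest level of the series. Of the 10 genes, 9 were highest in the second Comb tumor, whereas 4 were lowest in the third Comb tumor.

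**Figure D1:**
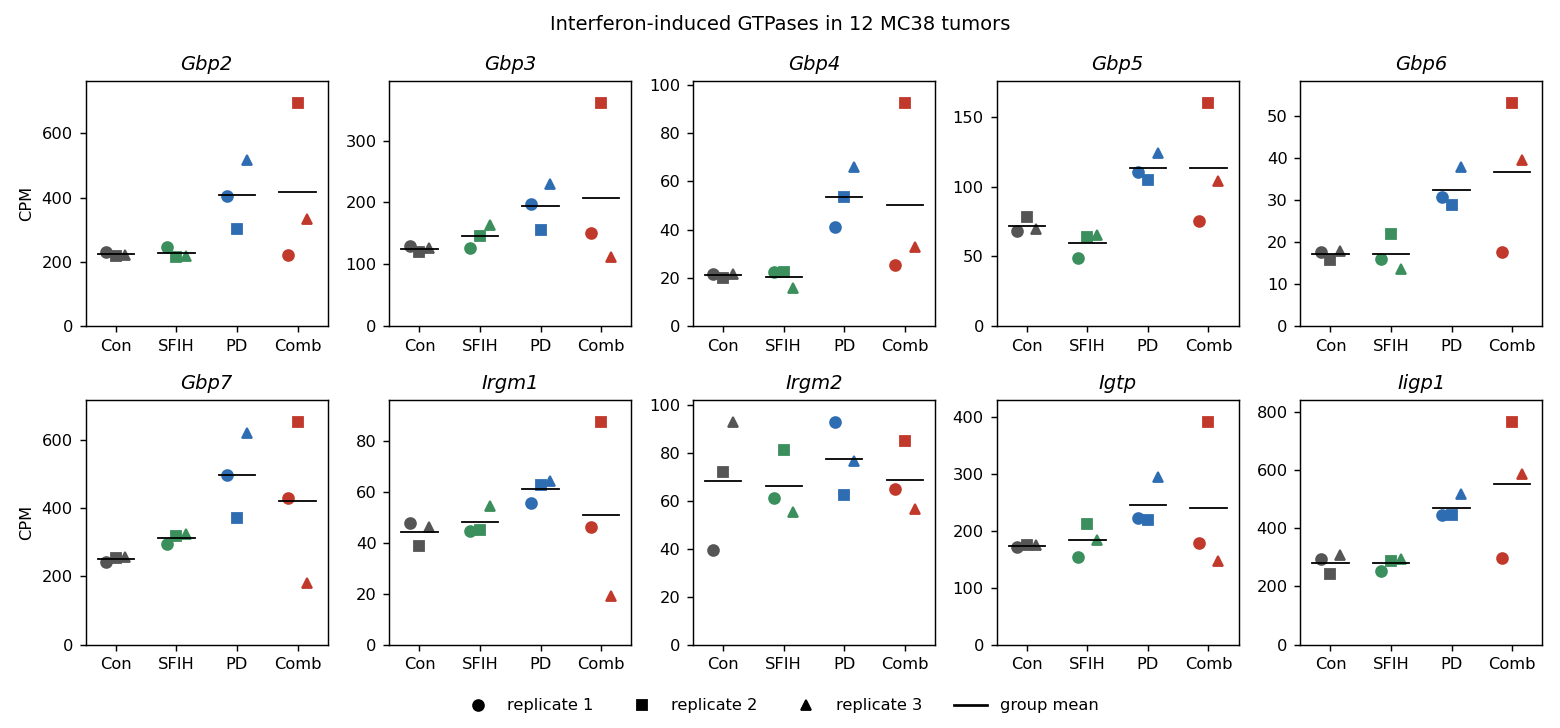
Level of each GTPase gene in CPM (linear axes from 0) in the 12 tumors by group, with symbols for the replicate and a line at the group mean. The PD points lie above all Con points in every panel except Irgm2, and the Comb points spread widest except for Irgm2, with the second Comb tumor highest in 9 of 10 panels.

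Gbp4, a guanylate-binding protein of the chromosome 5 cluster, showed the largest difference. Its level was 21.7, 19.8 and 21.5 CPM in the Con tumors, 22.6, 22.6 and 15.7 CPM in the SFIH tumors, 41.2, 53.7 and 65.8 CPM in the PD tumors, and 25.4, 92.4 and 32.6 CPM in the Comb tumors. All 6 tumors treated with the antibody were above all 6 tumors that were not. It was the only one of the 10 genes without overlap in that comparison, in which 1.12% of all genes tested were higher without overlap.

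Iigp1, the effector of the immunity-related family that loosens the membrane of parasite vacuoles, had 292, 242 and 307 CPM in Con, 254, 289 and 295 CPM in SFIH, 446, 444 and 518 CPM in PD, and 297, 765 and 587 CPM in Comb. The PD tumors and the second and the third Comb tumors lay above every tumor without the antibody, while the first Comb tumor was at 297 CPM, within the Con range.

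Gbp2, one of the best studied family members at bacterial and parasite vacuoles, had 230, 218 and 221 CPM in Con and 248, 214 and 219 CPM in SFIH. In PD it had 406, 301 and 518 CPM, and in Comb 222, 694 and 334 CPM. The first Comb tumor again lay within the Con range, and the other 5 tumors given the antibody exceeded all others.

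Gbp5, which promotes inflammasome assembly, had 68.0, 77.9 and 69.6 CPM in Con, 48.6, 63.8 and 65.3 CPM in SFIH, 110, 105 and 124 CPM in PD, and 75.6, 160 and 104 CPM in Comb. The SFIH tumors were all below the Con tumors, and the PD tumors all above them. Gbp6 had 17.7, 15.7 and 17.8 CPM in Con, 16.1, 21.9 and 13.7 CPM in SFIH, 30.8, 28.8 and 37.8 CPM in PD, and 17.7, 53.1 and 39.6 CPM in Comb. As with Gbp5, Gbp2 and Iigp1, 5 of the 6 antibody-treated tumors were above all 6 others.

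Gbp7 and Gbp3, neighbors on chromosome 3, behaved differently in the third Comb tumor. Gbp7, which takes part in assembling the phagocyte oxidase, had 241, 253 and 256 CPM in Con, 293, 318 and 323 CPM in SFIH, 496, 370 and 619 CPM in PD, and 429, 652 and 179 CPM in Comb. The Con, SFIH and PD tumors followed each other in this order without overlap, and the third Comb tumor had the lowest level of all 12. Gbp3 had 130, 119 and 127 CPM in Con, 126, 146 and 164 CPM in SFIH, 197, 155 and 230 CPM in PD, and 150, 360 and 112 CPM in Comb. Its lowest level was likewise in the third Comb tumor.

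The regulators of the immunity-related family varied less between groups. Igtp, also called Irgm3, had 171, 174 and 174 CPM in Con, 154, 211 and 183 CPM in SFIH, 223, 218 and 294 CPM in PD, and 179, 391 and 147 CPM in Comb. Its PD tumors were above all Con and SFIH tumors. Irgm1, which is also linked to autophagy and to the survival of T cells, had 48.0, 38.9 and 46.4 CPM in Con, 44.8, 45.1 and 54.4 CPM in SFIH, 55.8, 62.9 and 64.5 CPM in PD, and 46.1, 87.6 and 18.9 CPM in Comb. The lowest and the highest of the 12 levels of Irgm1 were thus both in Comb.

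Irgm2 was the exception. It had 39.4, 71.9 and 92.8 CPM in Con, 61.3, 81.2 and 55.3 CPM in SFIH, 92.9, 62.3 and 76.5 CPM in PD, and 64.7, 84.8 and 56.7 CPM in Comb. Its Con tumors alone spanned nearly the whole range of the series, and no group was separated from another. Its neighbor Igtp, with nearly the same ISRE and GAS stretch, kept to 173 ± 1.70 CPM in Con (SD, n = 3) where Irgm2 had 68.0 ± 26.9 CPM.

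**Figure D2:**
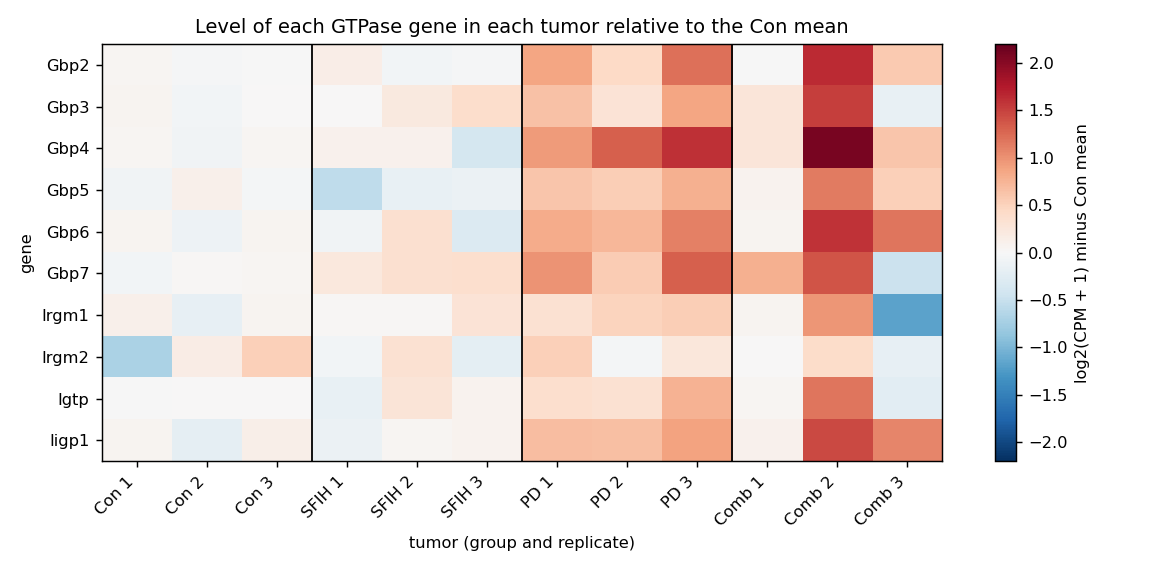
Difference of log2(CPM + 1) from the mean of the 3 Con tumors, for each GTPase gene (vertical axis) in each of the 12 tumors (horizontal axis). The PD columns are positive for all genes except Irgm2 in the second PD tumor, the first Comb tumor is near 0 for most genes, and the third Comb tumor is positive for 5 genes and below all Con tumors for Gbp3, Gbp7, Irgm1 and Igtp.

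Summed over the 10 genes, the level was 1259, 1231 and 1332 CPM in Con, 1269, 1412 and 1388 CPM in SFIH, 2098, 1801 and 2548 CPM in PD, and 1507, 3340 and 1612 CPM in Comb. Each antibody-treated tumor was above each untreated or SFIH-treated one on this sum, by the least in the first and the third Comb tumors. This order depended on TMM scaling. As a share of the raw counts the sum was 0.128% to 0.149% in Con and 0.136% to 0.157% in SFIH, against 0.154% in the first and 0.122% in the third Comb tumor, the lowest of the 12. The first Comb tumor exceeded all Con tumors for 4 genes, Gbp3, Gbp4, Gbp7 and Igtp. The third exceeded them for Gbp2, Gbp4, Gbp5, Gbp6 and Iigp1.

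The effect of the antibody alone was examined by comparing PD with Con. In total 9 genes, all except Irgm2, were higher in each PD tumor than in each Con tumor, where 9.4% of all genes tested were higher without overlap. Mean levels were 53.6 ± 12.3 against 20.98 ± 1.05 CPM for Gbp4, 495 ± 125 against 250 ± 8.32 CPM for Gbp7, and 409 ± 109 against 223 ± 6.58 CPM for Gbp2 (SD, n = 3). They were 469 ± 42.1 against 280 ± 33.7 CPM for Iigp1, and 77.2 ± 15.3 against 68.0 ± 26.9 CPM for Irgm2.

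Differences between groups were tested with the quasi-likelihood test of edgeR on the raw counts, with p-values adjusted over the 13464 genes tested by the Benjamini-Hochberg method and a call at an adjusted p under 0.05. In PD against Con the log2 fold change was 1.35 ± 0.42 (SE) for Gbp4, 0.99 ± 0.37 for Gbp7, 0.93 ± 0.34 for Gbp6, 0.87 ± 0.35 for Gbp2, 0.74 ± 0.28 for Iigp1 and 0.65 ± 0.25 for Gbp5. These 6 genes had an unadjusted p between 0.00764 and 0.0296, where 2.31% of all genes had an unadjusted p under 0.05 and were higher. For Gbp3, Igtp, Irgm1 and Irgm2 the values were 0.63 ± 0.36, 0.50 ± 0.32, 0.46 ± 0.40 and 0.18 ± 0.30.

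The median over the 10 genes was 0.70 on the log2 scale, against 0.01 over all genes. None of them was called by edgeR, with an adjusted p near 1 for each, nor was any other gene (0% of those tested). DESeq2 called 0 of the 10 and 0.0223% of all genes as higher, and limma voom with sample weights called Gbp7 (adjusted p = 0.0203) and 0.163% of all genes. Without the third Comb tumor, which is in neither group but enters the filter, the scaling and the shared spread, 8 of the 10 genes had an unadjusted p under 0.05 in edgeR and were higher, where 6.14% of all genes were. Without the third PD tumor this held for 1 gene and 1.83% of all genes. An exact permutation test of 3 against 3 tumors cannot go below 0.1.

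**Figure D3:**
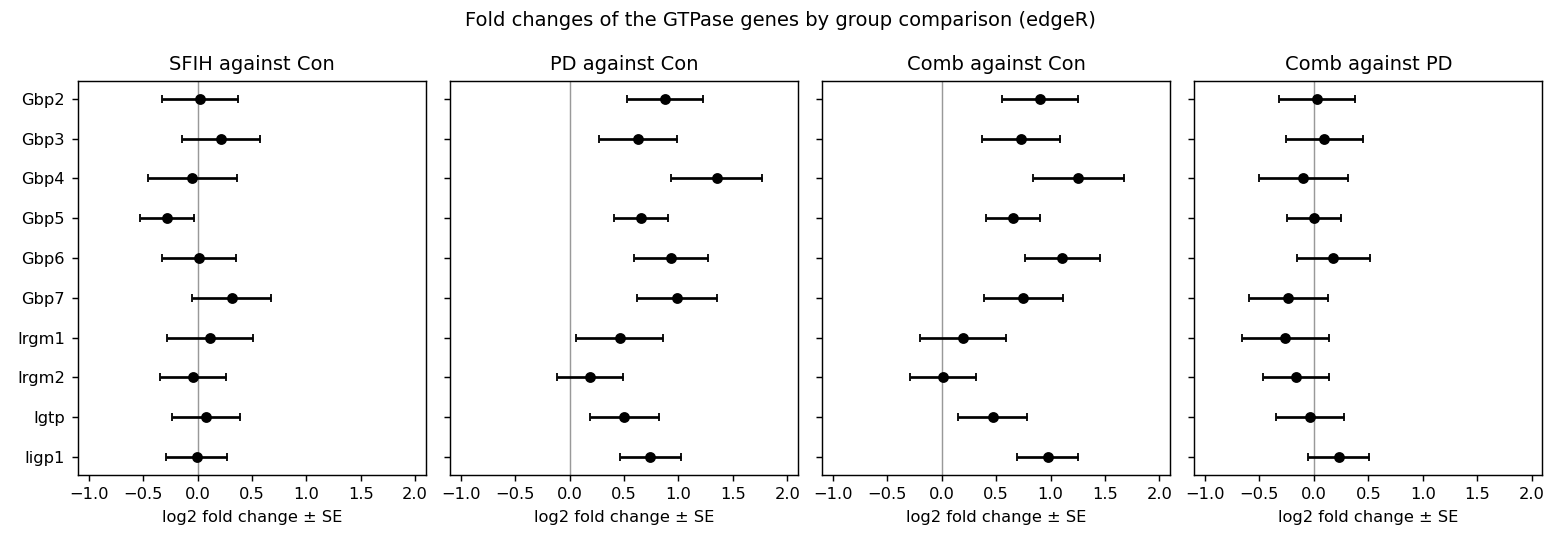
Log2 fold change ± SE from edgeR (horizontal axis) of each GTPase gene (vertical axis) in 4 group comparisons. Values for PD against Con and Comb against Con lie to the right of 0, up to 1.35 and 1.26 for Gbp4, while those for SFIH against Con and Comb against PD lie around 0. No value passed an adjusted p of 0.05.

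SFIH alone was compared with Con to ask whether the plant fraction changes these genes without the antibody. The median log2 fold change over the 10 genes was 0.02, as it was over all genes, and none was called or had an unadjusted p under 0.05 in edgeR, where 1.2% of all genes had one and were higher. Gbp7 was higher in all 3 SFIH tumors than in all Con tumors, at 311 ± 15.9 against 250 ± 8.32 CPM (SD, n = 3), with a log2 fold change of 0.32 ± 0.36. Gbp5 was lower in all 3, at 59.2 ± 9.24 against 71.8 ± 5.33 CPM, with a log2 fold change of -0.28 ± 0.25. Of all genes, 8.56% were higher and 8.83% lower without overlap in this comparison, so 1 of 10 in each direction is near the background.

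In Comb against Con the mean levels were near those in PD for most genes, but the SD was larger than in PD for 9 of the 10 genes, all except Irgm2. The SD over 3 Comb tumors was 246 CPM for Gbp2 around a mean of 417 CPM, 236 CPM for Iigp1 around 550 CPM, and 36.8 CPM for Gbp4 around 50.1 CPM. Only Gbp4 was higher in every Comb tumor than in every Con tumor, where 11.7% of all genes were.

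The log2 fold change in Comb against Con was 1.26 ± 0.42 for Gbp4, 1.11 ± 0.34 for Gbp6, 0.97 ± 0.28 for Iigp1, 0.90 ± 0.35 for Gbp2 and 0.66 ± 0.25 for Gbp5. These 5 genes had an unadjusted p under 0.05 in edgeR, where 18% of all genes did and were higher. The values were 0.75 ± 0.36 for Gbp7, 0.73 ± 0.36 for Gbp3, 0.47 ± 0.32 for Igtp, 0.19 ± 0.40 for Irgm1 and 0.01 ± 0.30 for Irgm2. The last 2 turned negative without TMM scaling, at -0.036 for Irgm1 and -0.25 for Irgm2, a setting in which the median of all genes moved to -0.29.

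Whether the genes were called in Comb against Con depended on the test and on single tumors. The adjusted p ranged from 0.0771 to 0.979 in edgeR, and none was called. DESeq2 called Iigp1, Gbp4 and Gbp6 (3 of 10, lowest adjusted p = 0.0130) and 12% of all genes as higher. Limma voom, with most of the weight in Comb on the second tumor, called 9 of the 10, all but Irgm2, and 12.1% of all genes. Its median over the 10 genes was 1.26 in place of 0.74, but without the third Comb tumor it called none and the median was 0.77. Without the first Comb tumor, edgeR called Iigp1, Gbp5, Gbp2, Gbp4 and Gbp6 (adjusted p from 0.00345) and 18.4% of all genes as higher. Without the second the median of the 10 genes was 0.29, and without the third 9 genes had an unadjusted p under 0.05 and were higher, where 11.4% of all genes were.

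Comb was also set against SFIH, the same addition of antibody in the presence of the fraction. Gbp4, Gbp5 and Iigp1 were higher in every Comb tumor than in every SFIH tumor, 3 of 10 where 7.66% of all genes were. Their log2 fold changes were 1.30 ± 0.42, 0.93 ± 0.25 and 0.98 ± 0.28, and that of Gbp6 was 1.09 ± 0.34. In all 5 genes, these 4 and Gbp2, had an unadjusted p under 0.05 in edgeR against 14.8% of all genes in that direction, and the lowest adjusted p was 0.128. DESeq2 called Gbp4, Gbp5, Gbp6 and Iigp1 (4 of 10, 7.84% of all genes), limma voom 9 (9.84%), and edgeR without the first Comb tumor 5 (15.5%). Limma voom without the third Comb tumor called none.

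The addition of SFIH to the antibody was examined by comparing Comb with PD. The log2 fold changes ran from -0.26 ± 0.40 for Irgm1 to 0.23 ± 0.28 for Iigp1, with a median of -0.02 against 0.00 over all genes. None of the 10 was higher or lower without overlap, where 6.19% of all genes were higher and 8.07% lower, and none had an unadjusted p under 0.05, where 12.9% of all genes had one and were higher. The median was 0.13 without the third Comb tumor and depended on the second. Without it the 10 values ran from -0.92 to -0.10 with a median of -0.57, and 5 genes had an unadjusted p under 0.05 in edgeR and were lower, where 6.09% of all genes were (lowest adjusted p = 0.183).

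The difference between the antibody effect with and without SFIH was tested as an interaction. It ran from -0.55 ± 0.51 for Gbp7 to 0.28 ± 0.35 for Gbp5 on the log2 scale, with adjusted p-values of 0.894 to 0.998 in edgeR. The median was -0.08, and it was -0.64 without the second and 0.14 without the third Comb tumor. The 6 tumors with SFIH against the 6 without it gave values from -0.14 ± 0.17 for Gbp5 to 0.16 ± 0.25 for Gbp3 and a median of 0.02 over the 10 genes, as over all genes, and the median was 0.09 without the third Comb tumor.

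All 6 tumors that received the antibody were then set against the 6 that did not. These 6 include the PD and Comb tumors of the comparisons above and share their controls, so that the values are not separate evidence. The log2 fold change was 1.33 ± 0.29 for Gbp4, 1.01 ± 0.24 for Gbp6, 0.88 ± 0.25 for Gbp2, 0.86 ± 0.20 for Iigp1, 0.79 ± 0.18 for Gbp5, 0.71 ± 0.26 for Gbp7 and 0.57 ± 0.25 for Gbp3. These 7 genes had an unadjusted p under 0.05 in edgeR, where 13.4% of all genes did and were higher. For Igtp, Irgm1 and Irgm2 it was 0.45 ± 0.22, 0.27 ± 0.28 and 0.12 ± 0.21, the last of which turned to -0.066 without TMM scaling.

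The median over the 10 genes was 0.75, against -0.03 over all genes. The lowest adjusted p, shared by Gbp4 and Gbp5, was 0.0973, so none was called by edgeR. DESeq2 called Iigp1, Gbp5, Gbp2, Gbp4 and Gbp6 (5 of 10, lowest adjusted p = 0.00112) and 7.72% of all genes as higher. Limma voom called 9 and 11.3% of all genes, and edgeR without the first Comb tumor called the same 5 genes as DESeq2 and 11.9% of all genes. Once the third Comb tumor was left out, limma voom called 1 of the 10 (0.0367% of all genes) and DESeq2 8 (5.37%), and 9 had an unadjusted p under 0.05 in edgeR, where 11.6% of all genes were higher at that level.

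For single genes, exact permutation tests over the 924 splits of 12 tumors were run on log2(CPM + 1), two-sided and with 0.00216 as the smallest p they can give. Gbp4 reached this p. It was 0.00433 for Gbp5 and Iigp1, 0.00649 for Gbp2 and 0.00866 for Gbp6, with 5 of the 6 antibody-treated tumors above all others for each of these 4 genes. Without TMM scaling it was 0.00649 for Gbp4, 0.00866 for Gbp6 and Iigp1, 0.0108 for Gbp5 and 0.0390 for Gbp2, with 4 of the 6 tumors above all others for Gbp5 and Gbp2 and 5 for the other 3. With TMM scaling it was 0.0671 for Gbp7, 0.0779 for Gbp3, 0.0996 for Igtp, 0.496 for Irgm2 and 0.712 for Irgm1, and for these 5 genes it was 0.268 to 0.978 without it. Without the third Comb tumor (462 splits) Gbp4 and Gbp7 had 0.00216, the smallest p these can give, with all 5 antibody-treated tumors above the 6 others, the exact p was 0.0108 for Gbp3 and Igtp, 0.0216 for Irgm1 and 0.355 for Irgm2, and it was as before for Gbp5, Iigp1, Gbp2 and Gbp6. These p-values were not adjusted for the 10 genes.

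Markers of some other cells moved with the groups. Summed T cell markers (10 genes such as Cd3e and Cd8a, all detected) were 41.7 to 60.5 CPM in Con, 45.9 to 79.3 CPM in SFIH, 73.0 to 196 CPM in PD and 62.9 to 621 CPM in Comb. Summed macrophage markers (9 genes such as Adgre1 and Csf1r, all detected) were 562 to 950 CPM in Con, 937 to 1066 CPM in SFIH, 1013 to 2001 CPM in PD and 1114 to 14612 CPM in Comb. Both sums were thus higher in every PD tumor than in every Con tumor, as 9 of the 10 GTPase genes were. Of the T cell list, Cd3e, Cd3g, Cd8b1, Cd4, Cd5 and Lck overlapped between these groups. Of the macrophage list, Adgre1, Cd68, C1qa and Mrc1 did. The order of the macrophage sums depended on TMM scaling. The nearest tumors, at 1013 CPM in PD and 950 CPM in Con, had normalization factors of 1.01 and 1.12.

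Summed fibroblast markers (7 genes such as Col1a1) were 2151 to 2646 CPM in Con, 1016 to 3542 CPM in SFIH, 4120 to 6792 CPM in PD and 2924 to 22785 CPM in Comb. Their PD tumors, too, lay above all Con tumors, although Pdgfra, Pdgfrb and Dcn of this list overlapped between PD and Con. The sums of natural killer cell markers, at 37.1 to 47.5 CPM in PD and 35.0 to 48.5 CPM in Con, overlapped, as did those of dendritic cells, neutrophils and endothelial cells. None of the T cell, macrophage and fibroblast markers was called by edgeR. In PD against Con 2 genes of each list had an unadjusted p under 0.05 and were higher, where 2.31% of all genes were. The part of these cell types in the levels of the GTPase genes was not tested. In the third Comb tumor, which had the highest sums for all 3 lists, Iigp1 and Gbp6 were above each PD tumor, and Gbp3, Gbp7, Irgm1 and Igtp were below each Con tumor. Without TMM scaling Iigp1 and Gbp6 were no longer above each PD tumor. They had 445 and 30.0 CPM there, against 542 and 39.5 CPM in the third PD tumor.

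Interferon gamma itself, encoded by Ifng, was measured with few reads, 2 to 92 counts per tumor. Its level was 0.702, 0.201 and 1.25 CPM in Con, 2.11, 0.520 and 1.15 CPM in SFIH, 1.82, 6.00 and 1.90 CPM in PD, and 1.36, 10.6 and 11.1 CPM in Comb. The second and the third Comb tumors thus held the most Ifng while the first Comb tumor was within the SFIH range. In that tumor 6 of the 10 GTPase genes lay within the Con range. The first and the third PD tumors were within the SFIH range of Ifng as well, and in them 10 and 9 of the genes exceeded all Con tumors.

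To relate the genes to their inducer, each was correlated with Ifng over the 12 tumors on log2(CPM + 1), with 100000 permutations and adjustment over the 10 relations. Pearson's r was 0.85 for Iigp1 (Spearman's rho 0.76, permutation p = 0.000870 and 0.00592, adjusted 0.00870 and 0.0296) and 0.69 for Gbp4 (rho 0.73, permutation p = 0.0133 and 0.00973, adjusted 0.0443 and 0.0324). It was 0.67 for Gbp2 (rho 0.83, permutation p = 0.0181 and 0.00164, adjusted 0.0451 and 0.0164), 0.78 for Gbp6 (rho 0.67, permutation p = 0.00331 and 0.0203, adjusted 0.0165 and 0.0507) and 0.65 for Gbp5 (rho 0.52, permutation p = 0.0225 and 0.0891, adjusted 0.0451 and 0.178). These 5 genes are those that exceeded all Con tumors in the third Comb tumor.

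The other 5 genes had no relation to Ifng that passed, with r of 0.38 for Gbp3, 0.34 for Igtp, 0.17 for Gbp7, 0.03 for Irgm2 and -0.02 for Irgm1, rho from 0 to 0.30 and permutation p of at least 0.213. The 2 tumors farthest from the median of Ifng were the second and the third Comb tumors. Without them r was 0.64 for Iigp1 (unadjusted permutation p = 0.0430), 0.67 for Gbp4 (0.0299), and 0.51, 0.47 and 0.40 for Gbp6, Gbp2 and Gbp5 (0.134, 0.178 and 0.252), and no relation passed after adjustment over the 10 (lowest adjusted permutation p = 0.132) with 10 tumors left. For Gbp6, Gbp5, Iigp1 and Gbp2 r thus fell without those tumors, whereas that of Gbp4 was nearly as strong without them. Irgm1, in contrast, had r of 0.73 without them (unadjusted permutation p = 0.0132), where it was -0.02 with all 12 tumors.

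The groups differ in Ifng as well, and within groups, with the group means subtracted, r was 0.71 for Iigp1, 0.57 for Gbp6, 0.49 for Gbp4, 0.42 for Gbp2, 0.37 for Gbp5 and -0.32 for Gbp7. When TMM scaling was left out, no Pearson's r passed the adjusted threshold (lowest adjusted permutation p = 0.0536, for Iigp1, r = 0.75), and of the Spearman relations that of Gbp2 passed (rho 0.80, adjusted permutation p = 0.0320).

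**Figure D4:**
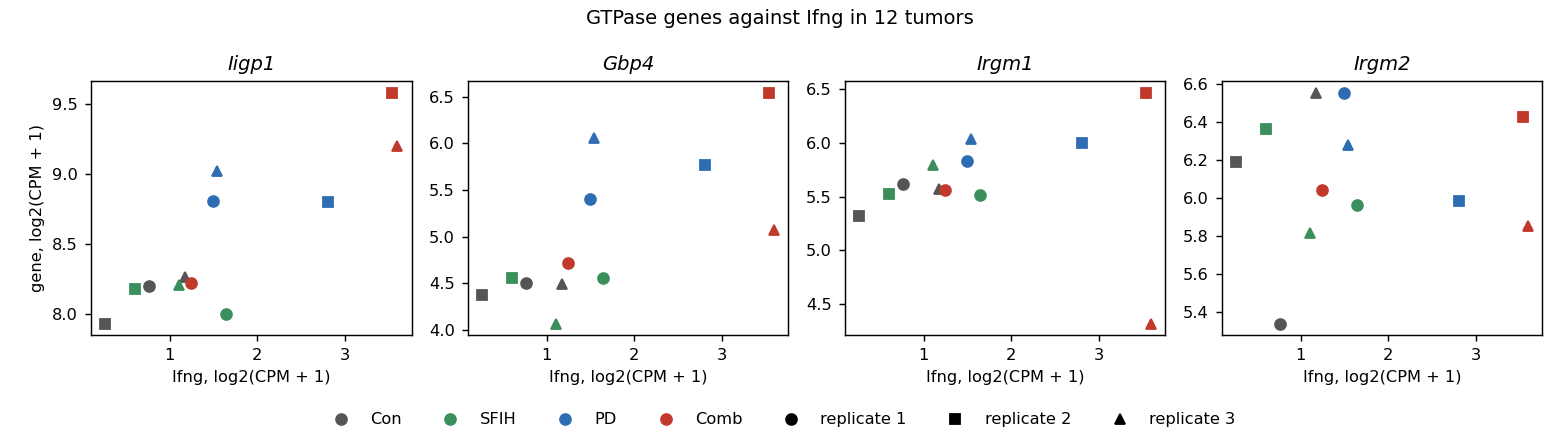
Level of Iigp1, Gbp4, Irgm1 and Irgm2 (vertical axis, log2(CPM + 1)) against that of Ifng (horizontal axis, log2(CPM + 1)) in the 12 tumors, with color for the group and symbol for the replicate. Iigp1 and Gbp4 run upward with Ifng (r = 0.85 and 0.69), and in the Irgm1 panel the third Comb tumor lies far below the others.

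Other genes of the pathway were described from lists, none of whose members was called by edgeR in any comparison. Of 19 further interferon-induced GTPase genes tested, 3 in PD against Con, 8 in Comb against Con and 11 in the comparison of all antibody-treated tumors had an unadjusted p under 0.05 and were higher, and none was lower, beside 2.31%, 18% and 13.4% of all genes that were higher at that level. These counts were 4, 8 and 13 without the third Comb tumor, beside 6.14%, 11.4% and 11.6% of all genes. The list had a median of 0.53, 0.67 and 0.70 in the 3 comparisons.

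In the comparison of all antibody-treated tumors, the log2 fold change was 1.19 ± 0.26 for Gm4841, 1.15 ± 0.28 for F830016B08Rik, 0.72 ± 0.18 for Gbp9 and 2.70 ± 0.74 for Gbp2b (edgeR adjusted p = 0.0973, 0.0980, 0.0980 and 0.0986). Leaving out the third Comb tumor gave 1.04 ± 0.23, 0.96 ± 0.24, 0.66 ± 0.17 and 1.92 ± 0.60. Gm4841 and F830016B08Rik are predicted members of the immunity-related family. Gbp2b, the mouse gene formerly called Gbp1 and a neighbor of Gbp2, had 2.33, 19.6 and 73.9 CPM in the Comb tumors against 0.526 to 3.39 CPM in Con. Its highest level was in the third Comb tumor, in which the neighbors Gbp3 and Gbp7 were lowest.

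Among 18 genes of the interferon gamma receptor and its signaling, 4 had an unadjusted p under 0.05 and were higher in PD against Con, 6 were higher and 2 lower in Comb against Con, and 7 were higher in the comparison of all antibody-treated tumors. Of all genes 2.31% were higher in the first, 18% higher and 7.3% lower in the second and 13.4% higher in the last. Without the third Comb tumor the counts were 6, then 5 and 1, then 7, where 6.14%, then 11.4% and 7.43%, then 11.6% of all genes were. In the last comparison the log2 fold change was 3.17 ± 0.63 for Ciita, the master activator of MHC class II genes, 2.36 ± 0.63 for Ifng, 0.94 ± 0.28 for Irf8, a transcription factor of myeloid cells, and 0.61 ± 0.14 for Irf1, and without the third Comb tumor these were 2.54 ± 0.52, 2.17 ± 0.63, 0.75 ± 0.24 and 0.64 ± 0.12. The median over the list was only 0.21 there, 0.27 in PD against Con and 0.12 in Comb against Con. Irf1, which binds the ISRE, had 532, 486 and 556 CPM in PD and 298, 364 and 387 CPM in Con. Its levels were 263, 276 and 279 CPM in SFIH, all below Con, and 346, 543 and 381 CPM in Comb.

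Genes with the most similar pattern to the 10 were sought by Pearson's r over the 12 tumors with the mean z-score of the 10 genes, among all other genes tested. The 5 closest were Tgtp1 with r of 0.93, Msrb3 with 0.92, Nuak1 with 0.91, Batf2 with 0.90 and Fam133b with 0.90, and they are given as a description because all points share libraries and scaling. Their r was 0.94, 0.92, 0.93, 0.90 and 0.90 without the third Comb tumor, and among the 15 closest genes Gbp10 then had the highest r, 0.97. Tgtp1, itself an interferon-induced GTPase, had 77.4, 60.9 and 90.9 CPM in Con, 94.4, 98.7 and 120 CPM in PD and 77.9, 157 and 90.3 CPM in Comb. All of its 3′ stretches were shared with its copy Tgtp2, so that its counts cannot be told apart from those of Tgtp2.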

How the data were processed

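Libraries were made with a 3′ mRNA kit, sequenced as single-end 75 bp reads, and the authors deposited raw counts per gene. Their aligner, counter, genome build and strand setting are not given in the sources used here. The 3 tumors per group were grouped by their labels, and no pair of libraries was identical. The genes and lists were chosen with earlier results of these data known. Genes with low counts were removed by filterByExpr, leaving 13464, and edgeR (version 4.0.16, R version 4.3.3) was run with TMM scaling and 1 coefficient per group over all 12 tumors. A call required an adjusted p under 0.05. DESeq2 (version 1.42.0), limma voom with sample weights (version 3.58.1), other scalings and filters, fits of only the groups compared, a replicate block and the omission of each tumor were alternatives. The scripts were tested on simulated data. CPM used TMM library sizes, with a pseudocount of 1 on the log2 scale. Markers were given as summed CPM and pathway genes as counts of genes passing, and from each pathway list the 4 genes with the smallest unadjusted p in the comparison of all antibody-treated tumors were named. Deviations of same-numbered tumors correlated at -0.29 to 0.41 over 18 pairs (median -0.006), those of other tumors at -0.34 to 0.31 over 36 pairs (median 0.038). The tumors were therefore not treated as paired, although such correlations cannot exclude a pairing. Sequences came from RefSeq (GRCm38.p6), which was used for names and promoters only.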

Additional observations from a re-analysis of the deposited data

How the results depend on the processing

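No member gene was called lower in any setting. Limits are 3 tumors per group, the spread within Comb, and calls that changed with the test. In PD against Con the number called was 0 in edgeR and DESeq2 and 1 (Gbp7) in limma voom, in DESeq2 without the third Comb tumor and in limma voom without it, the last 2 chosen after seeing the data and calling 0.316% and 0.022% of all genes as higher. The number with an unadjusted p under 0.05 was 6. It was 9 in limma voom, in a fit of only these groups and in DESeq2 without the third Comb tumor (8.88%, 6.41% and 6.95% of all genes higher), and 1 to 8 when single tumors were left out, the lowest without the third PD tumor.

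In Comb against Con, 0 were called in edgeR, 3 in DESeq2, 9 in limma voom, 4 in DESeq2 without the third Comb tumor (4.02% of all genes), 0 in limma voom without it (median 0.77), and 0 to 5 when single tumors were left out of edgeR. The number at an unadjusted p under 0.05 was 5, and it was 9 in limma voom, 3 without TMM, 3 in a fit of only these groups and 9 in DESeq2 without the third Comb tumor (19.3%, 11.9%, 10.7% and 12.1% of all genes higher), and 1 to 9 with single tumors left out. The median of 0.74 became 1.26 in limma voom and 0.29 to 0.97 with single tumors left out. Irgm1 turned to -0.036 and Irgm2 to -0.25 without TMM, and Irgm2 to -0.022 without the filter. With single tumors left out, Irgm1 ran from -0.46 to 0.59, Irgm2 from -0.26 to 0.31 and Igtp from -0.10 to 0.72, and Irgm2 in PD against Con from -0.10 to 0.46.

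In Comb against SFIH, 0 were called in edgeR, 4 in DESeq2, 9 in limma voom, 2 in DESeq2 without the third Comb tumor (0.565% of all genes), 0 in limma voom without it (median 0.69), and 0 to 5 with single tumors left out. At an unadjusted p the count was 9 in limma voom (17.2% of all genes), 8 in DESeq2 without the third Comb tumor (7.88%) and 2 to 8 with single tumors left out. The median became 1.16 in limma voom and 0.12 to 0.94 with single tumors left out, the lowest without the second Comb tumor. In the comparison of all antibody-treated tumors 0 were called in edgeR, 5 in DESeq2, 9 in limma voom, 8 in DESeq2 and 1 in limma voom without the third Comb tumor (5.37% and 0.0367% of all genes), and 0 to 5 with single tumors left out. Irgm2 turned to -0.066 without TMM, and on log2(CPM + 1) without TMM Irgm1 turned to -0.040 and Irgm2 to -0.035. With single tumors left out Irgm1 ran from -0.057 to 0.47 and Irgm2 from -0.018 to 0.27.

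In Comb against PD, limma voom gave 2 genes at an unadjusted p, where 15.4% of all genes were higher, and a median of 0.43. With single tumors left out the count was 0 to 5 and the median -0.57 to 0.24. The 5 were lower and came without the second Comb tumor, where 6.09% of all genes were lower. Irgm1 turned to 0.36 in limma voom, 0.15 in DESeq2 without the third Comb tumor and 0.043 in limma voom without it, and ran from -0.92 to 0.13 with single tumors left out. Iigp1 turned to -0.021 in limma voom without the third Comb tumor and ran from -0.10 to 0.54. For the interaction, limma voom gave 1 higher gene at an unadjusted p (7% of all genes higher) and a median of 0.34. Leaving out single tumors gave 0 to 5 genes. The 5 were all lower and came without the second Comb tumor, where 1.25% of all genes were lower. The medians were then -0.64 to 0.19, and Gbp5 ran from -0.067 to 0.53. For the 6 tumors with SFIH against the others, limma voom gave 2 higher genes (15.6% of all genes higher). Leaving out single tumors gave 0 to 2, and the 2 were lower, without the second Comb tumor (5.95% of all genes lower). Gbp5 turned to 0.045 in limma voom and Gbp3 ran from -0.18 to 0.30 with single tumors left out. In SFIH against Con 1 gene had an unadjusted p under 0.05 in a fit of only these groups, where 4.83% of all genes were higher and 6.24% lower, and in limma voom without the third Comb tumor, where 6.91% and 7.11% were.

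Without TMM the genes without overlap were 1 in SFIH against Con, 1 in Comb against SFIH and 0 in the comparison of all antibody-treated tumors, in place of 2, 3 and 1, where 7.55%, 4.65% and 0.661% of all genes were higher without overlap. The cause of these shifts was not tested. With the replicate block the medians were 0.70 in PD against Con, 0.68 in Comb against Con and 0.74 for all antibody-treated tumors, and no call changed. Same-numbered tumors did not deviate together more than others on the median, so the block was kept only as an alternative. Gbp6 counts are limited by shared 3′ sequence and Ifng by 2 to 92 reads.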

Other observations

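Genes that act beside the GTPases were measured in the same tumors. Of 10 genes of the inflammasome and of pyroptosis, the cell death that guanylate-binding proteins promote, none had an unadjusted p under 0.05 in edgeR in PD against Con, where 8 were positive and the median log2 fold change was 0.48, while 4 did in Comb against Con and were higher, with a median log2 fold change of 0.95 over the list against -0.03 over all genes. Of all genes 2.31% were higher at that level in PD against Con and 18% in Comb against Con. Without the third Comb tumor 1 was higher and 1 lower in PD against Con, where 6.14% of all genes were higher and 4.59% lower. In Comb against Con 4 were then higher with a median of 0.89, where 11.4% of all genes were higher. In Comb against Con the log2 fold change was 1.98 ± 0.52 (SE) for Gsdmd, the pore-forming protein of pyroptosis, 1.98 ± 0.51 for the cytokine gene Il18, 2.78 ± 0.69 for Ninj1, which ruptures the dying cell, and 2.12 ± 0.64 for the adaptor Pycard, and without the third Comb tumor it was 1.13 ± 0.37, 1.17 ± 0.38, 1.69 ± 0.50 and 1.03 ± 0.46. None was called by edgeR, with adjusted p from 0.0671 to 0.0819 for these 4 genes. Summed macrophage markers were 1114, 3986 and 14612 CPM in the same Comb tumors against at most 950 CPM in Con, and their part in these values was not tested.

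Of 11 autophagy conjugation genes, whose products direct the GTPases to membranes, none had an unadjusted p under 0.05 in PD against Con. The median log2 fold change was -0.10. Of all genes 2.31% were higher and 1.68% lower at that level. Without the third Comb tumor 1 gene of the list was lower in PD against Con, where 4.59% of all genes were. In Comb against Con 4 were higher and 1 lower, where 18% of all genes were higher and 7.3% lower, with a median of 0.54. These 5 were no longer past that threshold without the third Comb tumor, where the median was 0.05. In the comparison of all antibody-treated tumors the log2 fold change was -0.44 ± 0.16 for Atg16l1, 0.44 ± 0.23 for Atg7, 0.58 ± 0.35 for Gabarapl1 and 0.37 ± 0.22 for Atg12, with edgeR adjusted p of 0.171 to 0.405. Without the third Comb tumor these were -0.37 ± 0.14, 0.17 ± 0.14, 0.027 ± 0.13 and 0.094 ± 0.11, and the median over the list fell from 0.30 to 0.027.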
